A study of Mus musculus with 24 samples.

Results

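The 35 genes described here encode aminoacyl-tRNA synthetases, the enzymes that attach each amino acid to its transfer RNA, and are defined by symbol, a rule that uses none of their values, among the 26636 gene symbols with a usable entry in the deposited tables. They comprise 20 genes for cytosolic enzymes, among them Gars and Kars, whose products also work in mitochondria, and 15 genes for enzymes of the mitochondrial matrix. This set of genes was, however, chosen for description with earlier results of these data known. RNA-seq was run on neural progenitor cells (NPCs) that had been grown from the cortex of C57BL/6 mouse embryos at day 12 of gestation and expanded with basic fibroblast growth factor. All cells were used at passage 3 and were moved into differentiation medium for the treatment, so every group shares that medium. A set of cells received the BET bromodomain inhibitor (+)-JQ1 at 0.2 or 0.5 µM for 12 or 24 h, and a matching set received its inactive mirror-image form, (−)-JQ1, at the same dose and time. No untreated or vehicle group was analysed here. Each of the 8 groups holds 3 libraries, which the labels describe as triplicates over 3 independent cell preparations, giving 24 libraries in all.

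Aminoacyl-tRNA synthetases supply the charged transfer RNAs on which ribosomes depend, and they fall into a pair of structurally unrelated folds, class I and class II. In the cytosol of animal cells several of them are held with the scaffold proteins Aimp1, Aimp2 and Eef1e1 in the multisynthetase complex, whereas the mitochondrial enzymes are encoded by separate nuclear genes and are imported. Many cytosolic synthetase genes are targets of Atf4, the transcription factor of the amino acid response, and Myc proteins are known drivers of genes for protein synthesis. (+)-JQ1 displaces BET proteins from acetylated chromatin. Mutations in several synthetase genes cause leukodystrophy or neuropathy in people.

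Values are FPKM, sequenced fragments scaled to transcript length and to the mapped reads of the library, so levels can be set beside each other between genes. Fold changes are differences of log2(FPKM + 1), (+)-JQ1 over (−)-JQ1, with their standard error; the added 1 understates changes of low genes. A gene is called higher or lower where the adjusted p from limma was under 0.05 after Benjamini-Hochberg adjustment over the 13801 genes that passed a filter of at least 1 FPKM in at least 3 libraries. All 35 synthetase genes passed that filter, without regard to group.

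The libraries listed between 16987 and 18243 genes above 0. Hexim1, a gene induced by BET inhibitors, had log2 fold changes of 1.52, 1.88, 1.30 and 1.67 and Myc had -1.13, -1.52, -1.41 and -2.14. Every set of 4 values gives the low and then the high dose at 12 h, followed by the low and then the high dose at 24 h. In 2 libraries, replicate 2 of 0.2 µM (+)-JQ1 at 24 h and replicate 1 of 0.2 µM (−)-JQ1 at 24 h, the single entry Mir5105 took 46.9% and 42.7% of all FPKM, so calls at 0.2 µM and 24 h that end without them are named below. Progenitor markers were strongly expressed, with medians of 235 FPKM for Sox2 and 85.6 FPKM for Nes, but glial genes were too. The 12 oligodendrocyte lineage markers summed to 547 to 715 FPKM with 0.5 µM (+)-JQ1 at 24 h, against 2309 to 2795 FPKM with 0.5 µM (−)-JQ1 at 24 h, and the 7 astrocyte markers to 1035 to 1052 FPKM against 1490 to 1776 FPKM. The 10 progenitor markers summed to 4612 to 6416 FPKM against 2931 to 4300 FPKM and 7 neuron markers to 211 to 276 FPKM against 137 to 183 FPKM in the same groups. There, 10 of 11 tested oligodendrocyte lineage markers, 5 of 7 astrocyte markers and 3 of 3 tested fibroblast and pericyte markers were called lower with (+)-JQ1, 7 of 10 progenitor markers were called higher and 2 lower, and 2 of 7 neuron markers were called higher and 2 lower. Among all genes tested, 24.5% were called lower and 13.7% higher in that comparison. Microglial markers were near 0, with Aif1, C1qa and C1qb at 0 in all 24 libraries and no library above 1.53 FPKM in sum. Of the 6 endothelial markers, Cdh5 and Cldn5 were at 0 in all 24, but Kdr reached 6.58 FPKM (median 1.535 FPKM). The 6 summed to 0.927 to 2.16 FPKM with 0.5 µM (+)-JQ1 at 24 h against 3.88 to 6.63 FPKM with (−)-JQ1. The part of this shift in cell type genes in the synthetase results was not tested. In bulk RNA, fewer cells of a type and less RNA per cell cannot be told apart.

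Promoter sequence is shown for 6 synthetase genes described below, all of which hold a match to the letters searched for. Aars and Farsb were called lower and Mars2 and Wars2 higher at 24 h. Tars and Vars2 were not called at 0.5 µM and 24 h. No match was found for Dars, Eprs, Yars, Fars2, Iars2, Lars2, Nars2 and Yars2, also described below, and their promoters are not shown. Of these, Yars, Yars2 and Fars2 were called lower and Dars, Iars2 and Nars2 higher at 0.5 µM and 24 h. RefSeq promoters (GRCm38.p6, not the mm9 build of the submitters' processing notes) were matched for 27 of the 35 genes, 13 cytosolic and 14 mitochondrial. Cars, Hars, Hars2, Lars, Nars, Rars, Vars and Wars were not matched. Both strands of the 250 bases before each start were searched. The letters sought were CACGTG (the E-box bound by Myc) and TGATGNAA (the core of the composite element bound by Atf4). Also sought were GCGCATGC (the core of the site of Nrf1, nuclear respiratory factor) and CCGGAAG (the Ets site). No match overlaps another in the stretches shown. The 150 bases before the start are printed 5′ to 3′ along the gene's strand, with matches in capitals: Aars (chr8:111033692-111033841, plus strand), Farsb (chr1:78488898-78489047, minus strand), Tars (chr15:11399659-11399808, minus strand), Mars2 (chr1:55237027-55237176, plus strand), Vars2 (chr17:35667593-35667742, minus strand) and Wars2 (chr3:99140940-99141089, plus strand).
Aars: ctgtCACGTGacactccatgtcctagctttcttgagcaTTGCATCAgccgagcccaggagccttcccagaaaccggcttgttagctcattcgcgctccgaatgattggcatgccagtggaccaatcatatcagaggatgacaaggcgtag
Farsb: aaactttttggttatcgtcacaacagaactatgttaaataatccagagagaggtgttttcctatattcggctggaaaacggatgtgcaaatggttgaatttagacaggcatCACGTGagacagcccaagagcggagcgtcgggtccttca
Tars: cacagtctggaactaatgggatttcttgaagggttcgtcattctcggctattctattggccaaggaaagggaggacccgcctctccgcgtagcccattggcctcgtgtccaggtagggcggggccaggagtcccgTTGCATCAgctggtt
Mars2: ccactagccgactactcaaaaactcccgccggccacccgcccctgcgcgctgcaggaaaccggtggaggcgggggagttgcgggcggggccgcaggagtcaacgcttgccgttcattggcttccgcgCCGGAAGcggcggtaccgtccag
Vars2: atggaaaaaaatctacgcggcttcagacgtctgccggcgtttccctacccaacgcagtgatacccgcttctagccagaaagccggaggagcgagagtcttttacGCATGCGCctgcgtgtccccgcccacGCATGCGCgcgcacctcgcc
Wars2: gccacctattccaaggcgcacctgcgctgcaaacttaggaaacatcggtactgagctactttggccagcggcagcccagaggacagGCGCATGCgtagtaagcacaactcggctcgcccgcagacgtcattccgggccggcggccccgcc

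Aars holds an E-box that begins 146 bases before the start and an Atf4 core 112 bases before it, Farsb an E-box 39 bases before, and Tars an Atf4 core 15 bases before. Mars2 holds an Ets match 23 bases before, Wars2 an Nrf1 core 64 bases before, and Vars2 Nrf1 cores 46 and 20 bases before. E-boxes were found in 3 of 13 cytosolic promoters (23.1%; Aars, Farsb and Iars) and in 0 of 14 mitochondrial ones, against 10.1% of 8967 promoters of tested genes and 6.86% of all 27025 genes with a promoter. Atf4 cores were in 3 of 13 cytosolic promoters (Aars, Gars and Tars) and in 0 of 14 mitochondrial ones, against 2.32% of tested genes and 3.91% of all. Nrf1 cores were in 0 of 13 cytosolic and 3 of 14 mitochondrial promoters (21.4%; Rars2, Vars2 and Wars2), against 5.32% of tested genes and 2.56% of all. Ets matches were in 4 of 13 cytosolic (30.8%) and 3 of 14 mitochondrial promoters, against 15.6% of tested genes and 7.83% of all. A match describes letters and not binding.

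The first comparison asks how the active enantiomer changed synthetase RNA at each dose and time. Cytosolic synthetase genes were called lower with (+)-JQ1 more often than higher, as were genes at large, and the mitochondrial genes went in both directions. Of the 20 cytosolic genes, 7, 9, 10 and 10 were called lower in the 4 comparisons and 0, 0, 0 and 1 higher. Of all 13801 genes tested, 19.6%, 26.1%, 21.8% and 24.5% were called lower and 8.23%, 12.2%, 11% and 13.7% higher. Of the 15 mitochondrial genes, 3, 5, 2 and 2 were called lower and 2, 2, 4 and 4 higher. The median log2 fold change was -0.26, -0.23, -0.30 and -0.27 for the cytosolic genes, -0.07, -0.20, -0.14 and -0.16 for the mitochondrial genes, and -0.07, -0.10, -0.07 and -0.05 for all genes. The added 1 understates changes of low genes, among them most mitochondrial ones, so medians and counts of these sets are not strictly comparable. Rescaling the libraries by the median of ratios moved the median of all genes by up to 0.10, at 0.5 µM and 12 h, and changed the split of all genes to 1794, 2624, 2500 and 2724 called higher (13%, 19%, 18.1% and 19.7%) beside 2277, 3017, 2455 and 2958 lower (16.5%, 21.9%, 17.8% and 21.4%), in place of 1136, 1682, 1523 and 1893 higher beside 2710, 3599, 3006 and 3380 lower. On that scale 6, 6, 8 and 7 cytosolic genes were called lower and 1, 2, 1 and 2 higher (Cars or Dars), and their median stayed below 0 at -0.17, -0.12, -0.20 and -0.18. The mitochondrial median was then 0.01, -0.10, -0.03 and -0.08, with 1, 5, 1 and 2 genes lower and 3, 4, 4 and 4 higher, so its direction at 0.2 µM and 12 h depends on the scaling. At 0.2 µM and 12 h leaving out (+)-JQ1 replicate 1 left 1 cytosolic gene called lower, (−)-JQ1 replicate 3 left 2 and (+)-JQ1 replicate 2 left 4. At 0.5 µM and 12 h, 4 were left without (+)-JQ1 replicate 1 and 5 without (−)-JQ1 replicate 3, and at 0.5 µM and 24 h 4 were left without (+)-JQ1 replicate 3. Of all genes, leaving out 1 library left 2109 to 2381 called lower at 0.2 µM and 12 h. It left 3046 to 3287 at 0.5 µM and 12 h and 2914 to 3228 at 0.5 µM and 24 h. All-gene counts thus fell by less than the lowest cytosolic counts.

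The counts at 0.2 µM and 24 h rest on the spread shared by all 24 libraries. Fitted to the 6 libraries of that comparison alone, Rars and Yars stayed called, so that 2 cytosolic genes in place of 10 were called lower, 0 mitochondrial genes in place of 4 higher and 0 in place of 2 lower; of all genes 1531 were then called lower and 423 higher. Median-of-ratios scaling ended the calls of Nars, Ears2 and Tars2 at 0.2 µM and 12 h, of Gars, Nars and Rars at 0.5 µM and 12 h, of Tars, Farsa and Ears2 at 0.2 µM and 24 h, and of Gars, Nars and Iars at 0.5 µM and 24 h. Without the filter on low values Ears2 lost its call at 0.2 µM at both times, Rars at 0.5 µM and 12 h, Tars and Farsa at 0.2 µM and 24 h, and Mars2 at 0.5 µM and 24 h. Leaving out both libraries with high Mir5105 ended the calls of Farsb, Tars and Ears2 at 0.2 µM and 24 h.

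**Figure D1:**
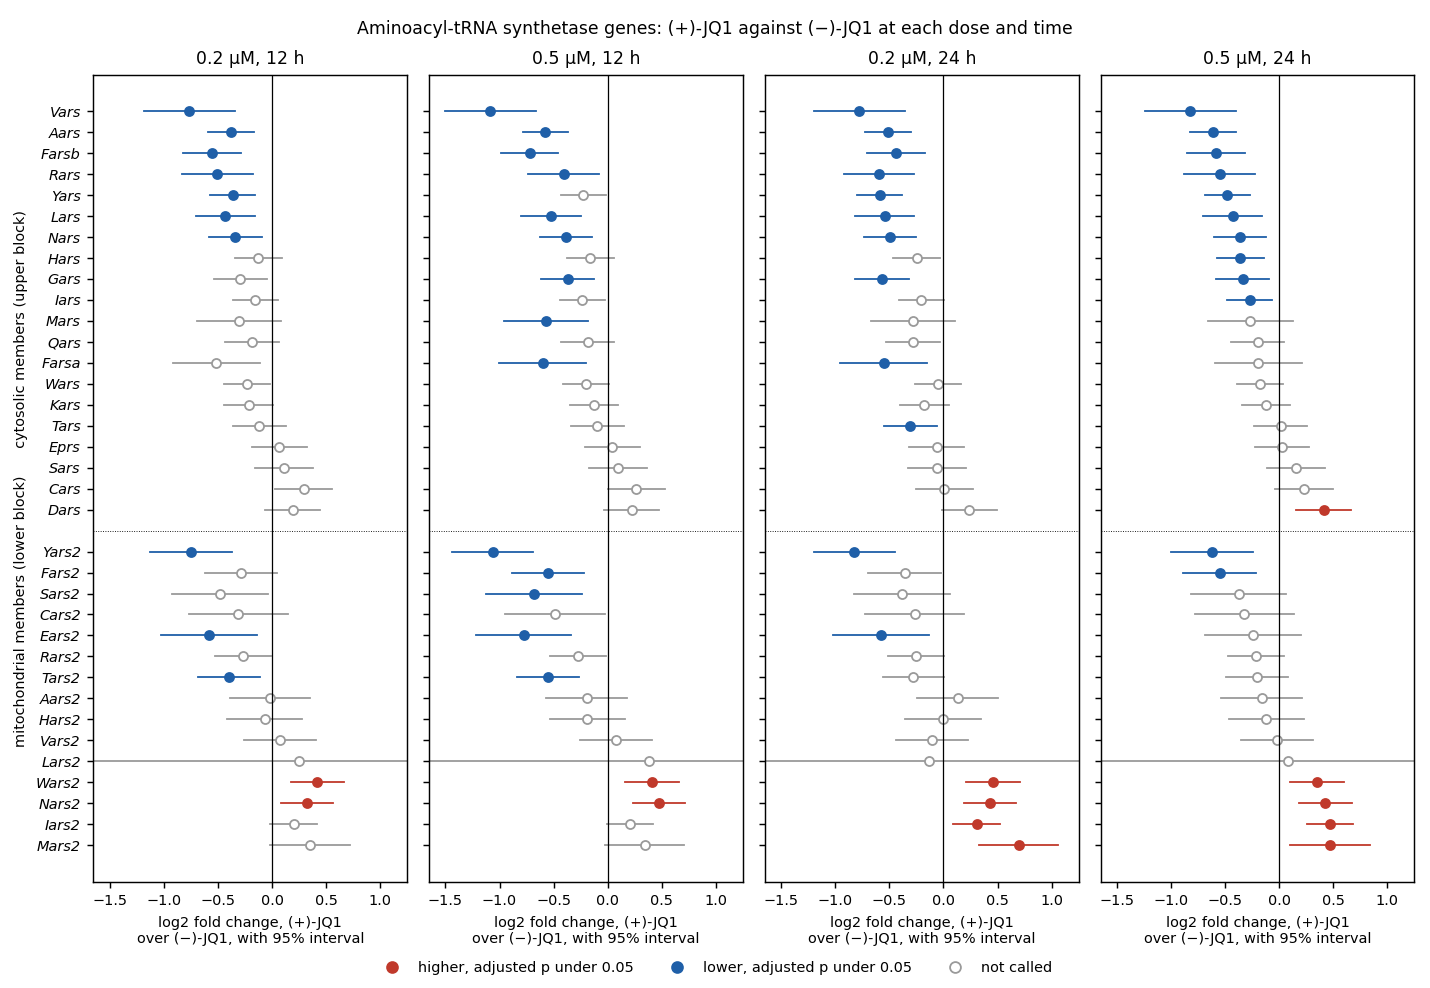
Log2 fold change of each of the 35 synthetase genes, (+)-JQ1 over (−)-JQ1, with 95% intervals (x axis) in 4 panels of dose and time, from a fit to all 24 libraries with 3 a group. Cytosolic genes fill the upper block and mitochondrial genes the lower; Vars and Yars2 lie farthest left, and the interval of Lars2 runs past the axis in every panel.

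**Figure D2:**
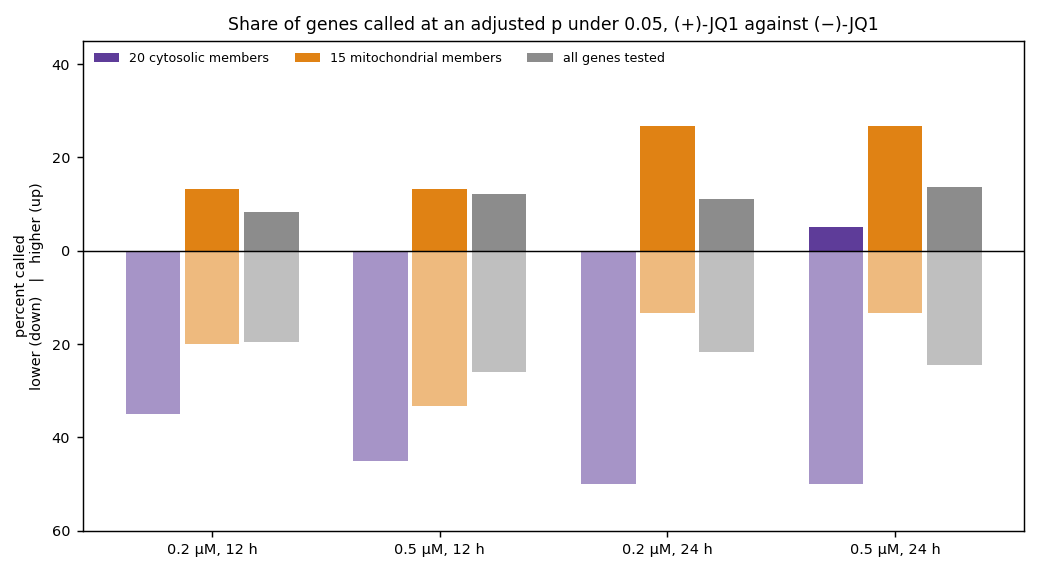
Percent of the 20 cytosolic genes, the 15 mitochondrial genes and all 13801 genes tested that were called higher (upward bars) or lower (downward bars) with (+)-JQ1 at each dose and time. In 3 of the 4 comparisons the cytosolic genes have no upward bar, and at both doses at 24 h 50.0% of them are called lower, against 21.8% and 24.5% of all genes.

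Counts of genes whose 3 (+)-JQ1 libraries lay entirely on 1 side of the 3 (−)-JQ1 libraries were read in the same way. The (+)-JQ1 values lay wholly below for 12, 14, 9 and 12 of the 20 cytosolic genes and wholly above for 0, 1, 1 and 1, where all genes gave 30.2%, 37.5%, 22.3% and 29.4% below and 16.8%, 20.7%, 11.7% and 18.7% above. For the 15 mitochondrial genes the counts were 7, 8, 1 and 5 below and 4, 4, 3 and 4 above. The FPKM of all 20 cytosolic genes summed to 579 ± 43.3 with 0.5 µM (+)-JQ1 at 24 h, against 645 ± 39.3 with 0.5 µM (−)-JQ1 at 24 h, and to 551 ± 21.5 against 639 ± 35.1 at 0.5 µM and 12 h (SD, n = 3 each). The (+)-JQ1 and (−)-JQ1 sums did not overlap at 0.5 µM and 12 h and did at 0.5 µM and 24 h. At 0.2 µM the sums were 550 ± 49.6 with (+)-JQ1 against 630 ± 51.4 with (−)-JQ1 at 12 h, and 567 ± 28.3 with (+)-JQ1 against 684 ± 39.8 with (−)-JQ1 at 24 h, and they overlapped at 12 h and not at 24 h. Without Lars2, the 14 mitochondrial genes summed to 86.5 ± 2.34 with 0.5 µM (+)-JQ1 at 24 h against 87.3 ± 1.79 with (−)-JQ1, and to 87.9 ± 2.16 with 0.5 µM (+)-JQ1 at 12 h against 100.3 ± 4.76 with (−)-JQ1. These sums overlapped at 24 h and did not at 12 h. Medians over all libraries lay between 10.6 FPKM (Vars) and 72.0 FPKM (Dars) for the cytosolic genes, and the mitochondrial medians ran from 1.92 FPKM (Ears2) to 25.4 FPKM (Lars2).

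The 6 cytosolic genes Aars, Farsb, Lars, Nars, Rars and Vars were called lower in all 4 comparisons, as was the mitochondrial Yars2, against 14.6% of all genes tested. Vars, which charges valine transfer RNA and was the lowest in level of the cytosolic genes, had the largest fold change among them in each comparison. Vars had 5.27, 7.23 and 8.79 FPKM with 0.2 µM (+)-JQ1 against 12.1, 12.9 and 12.7 FPKM with 0.2 µM (−)-JQ1 at 12 h. At 0.5 µM Vars had 4.84, 5.57 and 6.17 FPKM with (+)-JQ1 against 12.00, 12.4 and 14.1 FPKM with (−)-JQ1. Vars was lower in each (+)-JQ1 library than in any (−)-JQ1 library of the same dose at 12 h. After 24 h Vars had 6.72, 12.1 and 6.596 FPKM with 0.2 µM (+)-JQ1 against 20.8, 10.5 and 14.5 FPKM with 0.2 µM (−)-JQ1. For 0.5 µM, Vars stood at 5.32, 5.65 and 6.39 FPKM with (+)-JQ1 against 10.9, 10.7 and 11.4 FPKM with (−)-JQ1. Vars was lower in each (+)-JQ1 library than in any (−)-JQ1 library at 0.5 µM and 24 h, and the groups overlapped at 0.2 µM. At 0.2 µM and 24 h the high value of each group, 12.1 and 20.8 FPKM, came from a library with high Mir5105. Vars had log2 fold changes of -0.77, -1.09, -0.78 and -0.82, each ± 0.20 (SE), with limma adjusted p of 0.00656, 1.95e-04, 0.00523 and 0.00257. The call at 0.2 µM and 12 h was lost without (+)-JQ1 replicate 1, at a log2 fold change of -0.59 and an adjusted p of 0.0525. Refitted on 6 libraries, Vars at 0.2 µM and 24 h had an adjusted p of 0.111.

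Aars, the alanyl enzyme with both an E-box and an Atf4 core in the promoter above, was separated between the enantiomers in every comparison. Aars had 19.8, 21.9 and 25.03 FPKM with 0.2 µM (+)-JQ1 against 26.8, 28.8 and 32.2 FPKM with 0.2 µM (−)-JQ1 at 12 h. At 0.5 µM Aars had 18.4, 19.1 and 20.4 FPKM with (+)-JQ1 against 27.1, 29.5 and 31.2 FPKM with (−)-JQ1. Aars was lower in each (+)-JQ1 library than in any (−)-JQ1 library of the same dose at 12 h. After 24 h Aars had 21.05, 24.2 and 19.7 FPKM with 0.2 µM (+)-JQ1 against 34.95, 28.2 and 30.8 FPKM with 0.2 µM (−)-JQ1. For 0.5 µM, Aars stood at 18.5, 19.05 and 17.9 FPKM with (+)-JQ1 against 30.01, 28.8 and 27.8 FPKM with (−)-JQ1. Aars was lower in each (+)-JQ1 library than in any (−)-JQ1 library of the same dose at 24 h. Aars had log2 fold changes of -0.38, -0.58, -0.51 and -0.61, each ± 0.10 (SE), and the limma adjusted p was 5.34e-05 at 0.5 µM and 24 h. At 0.2 µM and 12 h, where the adjusted p was 0.00734, it was 0.054 without (+)-JQ1 replicate 1 and 0.0527 without (−)-JQ1 replicate 3, and at 0.2 µM and 24 h it was 0.0564 in the fit to 6 libraries. In the GENCODE vM21 annotation, which is not the one behind these files, 1326 exonic bases of Aars overlap Exosc6 on the same strand, so reads there may have been counted to either. Exosc6 itself averaged 2.35 FPKM with 0.5 µM (+)-JQ1 at 24 h against 3.93 FPKM with (−)-JQ1 and was not called.

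Farsb and Farsa encode the beta and alpha subunits of the cytosolic phenylalanyl enzyme, and Farsb, with an E-box in its promoter, kept its call at 12 h and at 0.5 µM and 24 h in every setting tried. Farsb had 19.2, 17.2 and 23.5 FPKM with 0.2 µM (+)-JQ1 against 27.7, 27.7 and 33.7 FPKM with 0.2 µM (−)-JQ1 at 12 h. At 0.5 µM Farsb had 17.3, 17.1 and 19.5 FPKM with (+)-JQ1 against 29.5, 29.6 and 31.8 FPKM with (−)-JQ1. Farsb was lower in each (+)-JQ1 library than in any (−)-JQ1 library of the same dose at 12 h. After 24 h Farsb had 20.8, 17.03 and 21.8 FPKM with 0.2 µM (+)-JQ1 against 25.8, 24.9 and 31.3 FPKM with 0.2 µM (−)-JQ1. For 0.5 µM, Farsb stood at 20.5, 15.6 and 20.5 FPKM with (+)-JQ1 against 27.4, 27.99 and 30.6 FPKM with (−)-JQ1. Farsb was lower in each (+)-JQ1 library than in any (−)-JQ1 library of the same dose at 24 h. Farsb had log2 fold changes of -0.56, -0.72, -0.44 and -0.59, each ± 0.13 (SE), with limma adjusted p of 0.00233, 1.19e-04, 0.0117 and 9.60e-04. At 0.2 µM and 24 h the adjusted p was 0.0621 without both libraries with high Mir5105, 0.0643 without (+)-JQ1 replicate 2 alone, 0.0726 without (−)-JQ1 replicate 3 and 0.109 in the fit to 6 libraries. The partner subunit Farsa had log2 fold changes of -0.52, -0.60, -0.55 and -0.19 and was called at 0.5 µM 12 h and at 0.2 µM 24 h, where leaving out single libraries took its adjusted p to 0.0735 and up to 0.16 and the fit to 6 libraries to 0.235 at 0.2 µM and 24 h. Farsb shares 248 exonic bases with Sgpp2 on the opposite strand in that annotation, and no source used here says that reads were counted by strand.

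Rars, Yars and Lars charge arginine, tyrosine and leucine transfer RNA. Rars had 27.7, 27.1 and 36.6 FPKM with 0.2 µM (+)-JQ1 against 37.6, 43.9 and 48.9 FPKM with 0.2 µM (−)-JQ1 at 12 h. At 0.5 µM Rars had 29.8, 32.9 and 34.3 FPKM with (+)-JQ1 against 38.4, 42.8 and 48.8 FPKM with (−)-JQ1. Rars was lower in each (+)-JQ1 library than in any (−)-JQ1 library of the same dose at 12 h. After 24 h Rars had 29.9, 24.1 and 26.2 FPKM with 0.2 µM (+)-JQ1 against 33.8, 44.1 and 45.4 FPKM with 0.2 µM (−)-JQ1. For 0.5 µM, Rars stood at 32.1, 34.4 and 25.4 FPKM with (+)-JQ1 against 46.7, 53.4 and 36.4 FPKM with (−)-JQ1. Rars was lower in each (+)-JQ1 library than in any (−)-JQ1 library of the same dose at 24 h. Replicate 3 was the lowest of each group at 0.5 µM and 24 h. Rars had log2 fold changes of -0.50, -0.41, -0.59 and -0.55, each ± 0.16 (SE), with limma adjusted p of 0.0197, 0.0458, 0.00593 and 0.00808. The call at 0.2 µM and 24 h was kept in every setting tried. Leaving out a library ended the others: 4 of 6 libraries at 0.2 µM and 12 h (adjusted p up to 0.0979, without (−)-JQ1 replicate 3), 5 of 6 at 0.5 µM and 12 h (up to 0.18, without (−)-JQ1 replicate 3), and (+)-JQ1 replicate 3 (0.0567) or (−)-JQ1 replicate 2 (0.0585) at 0.5 µM and 24 h.

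Yars was called in 3 of the 4 comparisons. Yars had 14.7, 15.9 and 17.97 FPKM with 0.2 µM (+)-JQ1 against 19.5, 20.6 and 23.2 FPKM with 0.2 µM (−)-JQ1 at 12 h. At 0.5 µM Yars had 16.5, 19.5 and 17.9 FPKM with (+)-JQ1 against 20.1, 22.4 and 20.98 FPKM with (−)-JQ1. Yars was lower in each (+)-JQ1 library than in any (−)-JQ1 library of the same dose at 12 h. After 24 h Yars had 17.6, 20.7 and 16.95 FPKM with 0.2 µM (+)-JQ1 against 30.5, 24.7 and 29.6 FPKM with 0.2 µM (−)-JQ1. For 0.5 µM, Yars stood at 15.96, 15.9 and 15.3 FPKM with (+)-JQ1 against 21.9, 22.3 and 22.6 FPKM with (−)-JQ1. Yars was lower in each (+)-JQ1 library than in any (−)-JQ1 library of the same dose at 24 h. Both calls at 24 h were kept in every setting tried. Yars had log2 fold changes of -0.36, -0.23, -0.59 and -0.48, each ± 0.10 (SE), with limma adjusted p of 0.00916, 0.082, 1.10e-04 and 6.38e-04. The 12 h call at 0.2 µM was lost without (+)-JQ1 replicate 1 (adjusted p 0.0573) or (−)-JQ1 replicate 3 (0.0617). Lars had 12.4, 13.2 and 15.7 FPKM with 0.2 µM (+)-JQ1 against 17.5, 18.5 and 20.8 FPKM with 0.2 µM (−)-JQ1 at 12 h. At 0.5 µM Lars had 11.8, 11.9 and 14.5 FPKM with (+)-JQ1 against 17.7, 18.01 and 20.5 FPKM with (−)-JQ1. Lars was lower in each (+)-JQ1 library than in any (−)-JQ1 library of the same dose at 12 h. After 24 h Lars had 13.8, 17.9 and 13.1 FPKM with 0.2 µM (+)-JQ1 against 25.5, 19.2 and 21.9 FPKM with 0.2 µM (−)-JQ1. For 0.5 µM, Lars stood at 14.9, 14.2 and 11.7 FPKM with (+)-JQ1 against 19.1, 19.8 and 16.9 FPKM with (−)-JQ1. Lars was lower in each (+)-JQ1 library than in any (−)-JQ1 library of the same dose at 24 h. Lars had log2 fold changes of -0.43, -0.52, -0.54 and -0.43, each ± 0.13 (SE), with limma adjusted p of 0.0165, 0.00301, 0.00295 and 0.0129. Without single libraries its adjusted p reached 0.0825 at 0.2 µM and 12 h, where leaving out (+)-JQ1 replicate 1 or 2 or (−)-JQ1 replicate 3 ended the call, and 0.0773 at 0.5 µM and 24 h, where (+)-JQ1 replicate 3 or (−)-JQ1 replicate 2 did; at 0.2 µM and 24 h it was 0.0712 in the fit to 6 libraries.

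**Figure D3:**
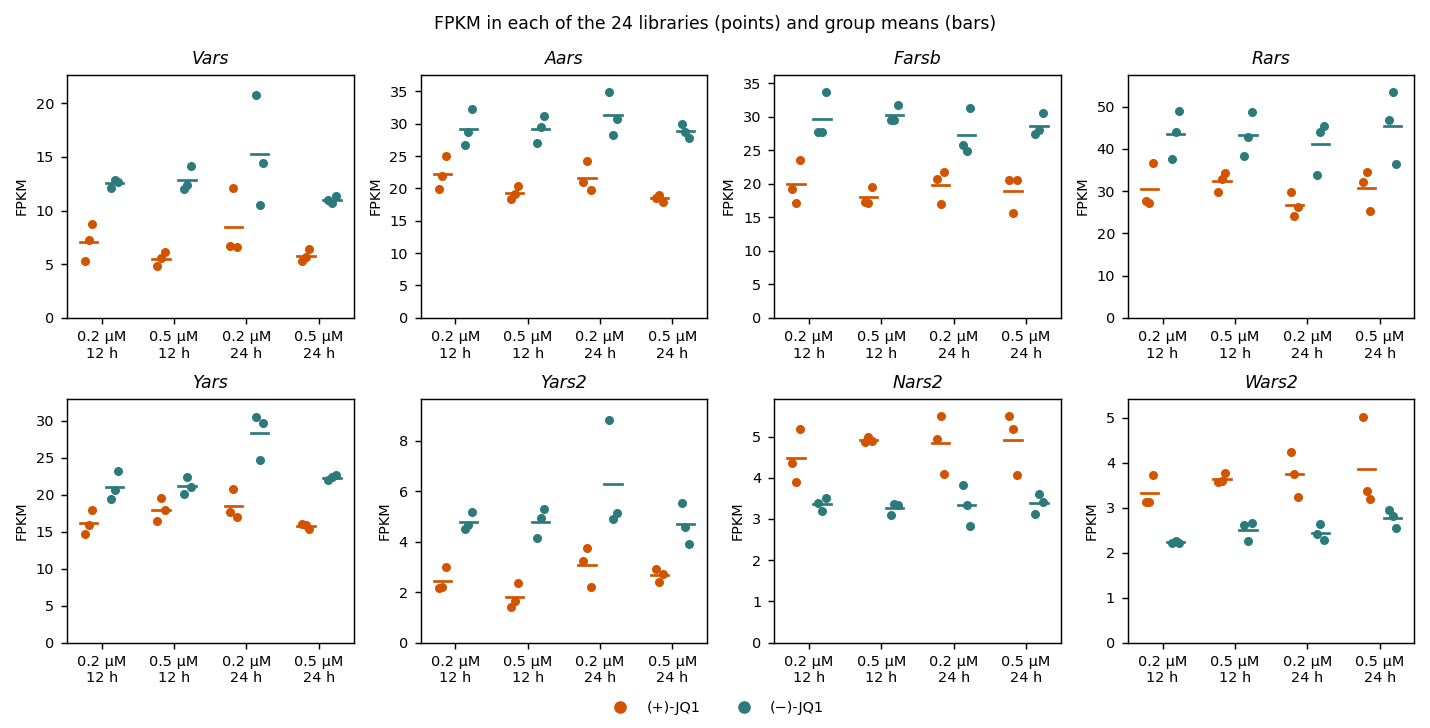
FPKM (y axis, from 0) of 8 synthetase genes in each of the 24 libraries, with (+)-JQ1 left of (−)-JQ1 at each dose and time; points are libraries and bars are means of 3. Vars, Aars, Farsb, Rars, Yars and Yars2 sit lower with (+)-JQ1 and Nars2 and Wars2 higher.

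Other cytosolic genes called lower were Nars (asparagine) in all 4 comparisons at -0.34, -0.39, -0.49 and -0.36, Gars (glycine) in 3 at -0.29, -0.37, -0.57 and -0.34 (in all 4 with the replicate number as a block), and Hars (histidine) and Iars (isoleucine) at 0.5 µM and 24 h alone, at -0.36 and -0.27. Mars (methionine) was called at 0.5 µM and 12 h alone, at -0.57, and Tars (threonine) at 0.2 µM and 24 h alone, at -0.31. Mars shares 68 exonic bases with Ddit3 on the opposite strand in the GENCODE vM21 annotation, and Ddit3 was called higher at 0.85 at 0.5 µM and 12 h. Further opposite-strand overlaps include Hars with Hars2 (195 bases), Ears2 with Ubfd1 (89) and Yars with C77080 (30). Gars averaged 35.6 ± 2.14 FPKM with 0.5 µM (+)-JQ1 at 24 h against 45.2 ± 1.43 with 0.5 µM (−)-JQ1, and Nars 34.1 ± 3.51 against 43.9 ± 1.32 in the same groups (SD, n = 3 each). The calls of Gars at 0.5 µM, of Nars at 12 h and at 0.5 µM and 24 h, and of Hars, Iars, Mars and Tars were each lost without at least 1 library, with Hars at an adjusted p of 0.055 without (+)-JQ1 replicate 3. Nars was called after median-of-ratios scaling at 0.2 µM and 24 h alone, with adjusted p of 0.0875, 0.0513 and 0.0535 in the other comparisons, and at 0.2 µM and 24 h refitting on 6 libraries took Nars to 0.0665 and Gars to 0.0609. Cars, Kars, Qars, Sars and Wars were called in none of the 4 comparisons. Of these, Cars (cysteine) had log2 fold changes of 0.29, 0.27, 0.01 and 0.23 and was called higher at 0.2 µM 12 h, 0.5 µM 12 h and 0.5 µM 24 h after median-of-ratios scaling.

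Dars, the aspartyl enzyme of the cytosol and the most abundant synthetase RNA, was the 1 cytosolic gene called higher in any of the 4 comparisons. Its fold change was above 0 in all 4, as was that of Cars, and those of Eprs and Sars were above 0 in 3. Dars had 76.8, 61.9 and 69.2 FPKM with 0.2 µM (+)-JQ1 against 61.1, 56.5 and 63.6 FPKM with 0.2 µM (−)-JQ1 at 12 h. At 0.5 µM Dars had 83.3, 65.95 and 69.1 FPKM with (+)-JQ1 against 65.9, 56.3 and 63.9 FPKM with (−)-JQ1. Dars was higher in each (+)-JQ1 library than in any (−)-JQ1 library at 0.5 µM and 12 h, and the groups overlapped at 0.2 µM. After 24 h Dars had 91.4, 90.3 and 79.7 FPKM with 0.2 µM (+)-JQ1 against 77.2, 68.8 and 74.8 FPKM with 0.2 µM (−)-JQ1. For 0.5 µM, Dars stood at 100.1, 99.7 and 84.7 FPKM with (+)-JQ1 against 76.6, 79.4 and 58.4 FPKM with (−)-JQ1. Dars was higher in each (+)-JQ1 library than in any (−)-JQ1 library of the same dose at 24 h. Dars had log2 fold changes of 0.19, 0.22, 0.24 and 0.41, each ± 0.12 (SE), and it was called higher at 0.5 µM and 24 h alone, with a limma adjusted p of 0.0107 that became 0.0876 without (−)-JQ1 replicate 3. Median-of-ratios scaling added calls at 0.5 µM 12 h and 0.2 µM 24 h.

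Tars, the threonyl enzyme, and Eprs, a fusion of the glutamyl and prolyl enzymes, had the smallest fold changes of the cytosolic genes at 0.5 µM and 24 h. Tars, whose promoter holds an Atf4 core close to the start, had 21.5, 23.6 and 26.6 FPKM with 0.2 µM (+)-JQ1 against 24.6, 25.8 and 27.6 FPKM with 0.2 µM (−)-JQ1 at 12 h. At 0.5 µM Tars had 22.8, 26.2 and 26.6 FPKM with (+)-JQ1 against 25.3, 27.3 and 28.4 FPKM with (−)-JQ1. Tars overlapped between the enantiomers at both doses at 12 h. After 24 h Tars had 25.4, 21.1 and 20.9 FPKM with 0.2 µM (+)-JQ1 against 24.6, 30.1 and 29.4 FPKM with 0.2 µM (−)-JQ1. For 0.5 µM, Tars stood at 30.03, 27.6 and 22.9 FPKM with (+)-JQ1 against 27.04, 29.3 and 23.3 FPKM with (−)-JQ1. Tars overlapped between the enantiomers at both doses at 24 h. The difference at 0.5 µM and 24 h was 0.01 ± 0.12 (95% interval -0.23 to 0.26; limma adjusted p 0.947), and the call at 0.2 µM and 24 h (adjusted p 0.0498) was lost without any of 4 of its 6 libraries, at up to 0.16 without (+)-JQ1 replicate 3, and became 0.0537 without both libraries with high Mir5105, 0.142 with median-of-ratios scaling and 0.234 in the fit to 6 libraries. Eprs had 47.8, 43.6 and 51.2 FPKM with 0.2 µM (+)-JQ1 against 42.5, 43.3 and 50.04 FPKM with 0.2 µM (−)-JQ1 at 12 h. At 0.5 µM Eprs had 47.1, 44.2 and 53.4 FPKM with (+)-JQ1 against 45.8, 43.9 and 50.5 FPKM with (−)-JQ1. Eprs overlapped between the enantiomers at both doses at 12 h. After 24 h Eprs had 53.3, 45.8 and 48.3 FPKM with 0.2 µM (+)-JQ1 against 46.5, 55.7 and 52.1 FPKM with 0.2 µM (−)-JQ1. For 0.5 µM, Eprs stood at 62.6, 57.3 and 45.01 FPKM with (+)-JQ1 against 59.03, 54.8 and 47.4 FPKM with (−)-JQ1. Eprs overlapped between the enantiomers at both doses at 24 h. Its difference at 0.5 µM and 24 h was 0.02 ± 0.12 (95% interval -0.23 to 0.28; limma adjusted p 0.901).

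By subgroup, the 8 synthetases of the multisynthetase complex (Dars, Eprs, Iars, Kars, Lars, Mars, Qars and Rars) had 2, 3, 2 and 3 genes called lower and 0, 0, 0 and 1 higher. The 12 cytosolic genes outside it had 5, 6, 8 and 7 called lower and none higher. Over both compartments, 6, 6, 6 and 6 of the 18 class I genes were called lower and 1, 1, 3 and 3 higher, and 4, 8, 6 and 6 of the 16 class II genes lower and 1, 1, 1 and 2 higher; Eprs, which joins the folds, was counted in neither. Of 12 cytosolic genes known to be induced through Atf4, 4, 5, 6 and 6 were called lower, and of the other 8 cytosolic genes 3, 4, 4 and 4. Of all genes, as given above, 19.6%, 26.1%, 21.8% and 24.5% were called lower and 8.23%, 12.2%, 11% and 13.7% higher. No test was made of the differences between them.

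Among the mitochondrial genes, Yars2 (tyrosine) had the largest decrease and Nars2 (asparagine) and Wars2 (tryptophan) were called higher in all 4 comparisons, against 5.84% of all genes. Yars2 had 2.17, 2.21 and 3.01 FPKM with 0.2 µM (+)-JQ1 against 4.52, 4.66 and 5.16 FPKM with 0.2 µM (−)-JQ1 at 12 h. At 0.5 µM Yars2 had 1.39, 1.63 and 2.35 FPKM with (+)-JQ1 against 4.16, 4.93 and 5.299 FPKM with (−)-JQ1. Yars2 was lower in each (+)-JQ1 library than in any (−)-JQ1 library of the same dose at 12 h. After 24 h Yars2 had 3.23, 3.75 and 2.21 FPKM with 0.2 µM (+)-JQ1 against 8.82, 4.898 and 5.14 FPKM with 0.2 µM (−)-JQ1. For 0.5 µM, Yars2 stood at 2.92, 2.39 and 2.73 FPKM with (+)-JQ1 against 5.54, 4.601 and 3.92 FPKM with (−)-JQ1. Yars2 was lower in each (+)-JQ1 library than in any (−)-JQ1 library of the same dose at 24 h. The highest value, 8.82 FPKM, came from the (−)-JQ1 library with high Mir5105. Yars2 had log2 fold changes of -0.75, -1.06, -0.82 and -0.62, each ± 0.18 (SE), with limma adjusted p of 0.00348, 7.44e-05, 0.00138 and 0.00951. The call at 0.5 µM and 24 h became 0.055 without (−)-JQ1 replicate 1, and that at 0.2 µM and 24 h became 0.0523 in the fit to 6 libraries.

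Fars2, the mitochondrial phenylalanyl enzyme, was called lower at 0.5 µM at both times. Fars2 had 6.01, 5.05 and 6.32 FPKM with 0.2 µM (+)-JQ1 against 7.898, 6.83 and 7.09 FPKM with 0.2 µM (−)-JQ1 at 12 h. At 0.5 µM Fars2 had 4.93, 4.34 and 3.87 FPKM with (+)-JQ1 against 7.77, 6.86 and 6.06 FPKM with (−)-JQ1. Fars2 was lower in each (+)-JQ1 library than in any (−)-JQ1 library of the same dose at 12 h. After 24 h Fars2 had 6.26, 8.63 and 5.36 FPKM with 0.2 µM (+)-JQ1 against 11.04, 6.798 and 8.97 FPKM with 0.2 µM (−)-JQ1. For 0.5 µM, Fars2 stood at 3.58, 4.48 and 4.92 FPKM with (+)-JQ1 against 6.52, 7.87 and 6.005 FPKM with (−)-JQ1. Fars2 was lower in each (+)-JQ1 library than in any (−)-JQ1 library at 0.5 µM and 24 h, and the groups overlapped at 0.2 µM. Fars2 had log2 fold changes of -0.29, -0.55, -0.36 and -0.55, each ± 0.16 (SE), with limma adjusted p of 0.00935 and 0.0096 at 0.5 µM. They became 0.0514 at 12 h without (−)-JQ1 replicate 1, and 0.06 and 0.0566 at 24 h without (+)-JQ1 replicate 1 and without (−)-JQ1 replicate 2. Fars2 shares 501 exonic bases with Nrn1 and 115 with Lyrm4 on the opposite strand; neither was called. Ears2 (glutamate) was called lower in 3 comparisons at -0.58, -0.78, -0.58 and -0.24, Tars2 (threonine) at both doses at 12 h at -0.40, -0.55, -0.28 and -0.21, and Sars2 (serine) at 0.5 µM and 12 h alone, at -0.68. Leaving out single libraries ended the calls of Ears2 and Tars2 at 0.2 µM and of Sars2, with adjusted p of up to 0.205, 0.171 and 0.0627. For Ears2 at 0.2 µM and 24 h the adjusted p was 0.054 without both libraries with high Mir5105 and 0.158 in the fit to 6 libraries.

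Nars2 and Wars2 were low in level but separated. Nars2 had 4.35, 3.91 and 5.19 FPKM with 0.2 µM (+)-JQ1 against 3.39, 3.196 and 3.497 FPKM with 0.2 µM (−)-JQ1 at 12 h. At 0.5 µM Nars2 had 4.86, 4.995 and 4.89 FPKM with (+)-JQ1 against 3.08, 3.37 and 3.33 FPKM with (−)-JQ1. Nars2 was higher in each (+)-JQ1 library than in any (−)-JQ1 library of the same dose at 12 h. After 24 h Nars2 had 4.95, 5.49 and 4.101 FPKM with 0.2 µM (+)-JQ1 against 3.82, 3.35 and 2.84 FPKM with 0.2 µM (−)-JQ1. For 0.5 µM, Nars2 stood at 5.49, 5.19 and 4.07 FPKM with (+)-JQ1 against 3.12, 3.61 and 3.42 FPKM with (−)-JQ1. Nars2 was higher in each (+)-JQ1 library than in any (−)-JQ1 library of the same dose at 24 h. Nars2 had log2 fold changes of 0.32, 0.47, 0.43 and 0.43, each ± 0.12 (SE), with limma adjusted p of 0.044, 0.00279, 0.00748 and 0.00613. The call at 0.2 µM and 12 h was lost without any of 5 of the 6 libraries, at up to 0.208 without (+)-JQ1 replicate 3, and the fit to 6 libraries gave 0.0542 there and 0.125 at 0.2 µM and 24 h. Wars2, with an Nrf1 core in its promoter, had 3.13, 3.12 and 3.72 FPKM with 0.2 µM (+)-JQ1 against 2.21, 2.26 and 2.202 FPKM with 0.2 µM (−)-JQ1 at 12 h. At 0.5 µM Wars2 had 3.57, 3.58 and 3.78 FPKM with (+)-JQ1 against 2.61, 2.26 and 2.65 FPKM with (−)-JQ1. Wars2 was higher in each (+)-JQ1 library than in any (−)-JQ1 library of the same dose at 12 h. After 24 h Wars2 had 4.24, 3.75 and 3.24 FPKM with 0.2 µM (+)-JQ1 against 2.41, 2.63 and 2.27 FPKM with 0.2 µM (−)-JQ1. For 0.5 µM, Wars2 stood at 5.01, 3.37 and 3.18 FPKM with (+)-JQ1 against 2.94, 2.82 and 2.54 FPKM with (−)-JQ1. Wars2 was higher in each (+)-JQ1 library than in any (−)-JQ1 library of the same dose at 24 h. Wars2 had log2 fold changes of 0.42, 0.41, 0.46 and 0.35, each ± 0.12 (SE), with limma adjusted p of 0.0111, 0.00969, 0.0051 and 0.0254. At 0.5 µM and 24 h it rested on (+)-JQ1 replicate 1, without which the log2 fold change was 0.18 and the adjusted p 0.218. It was 0.0887 without (−)-JQ1 replicate 3, and for 0.2 µM and 12 h it was 0.0605 without (+)-JQ1 replicate 3. In fits to 6 libraries Wars2 was at 0.0759 for 0.2 µM and 0.123 for 0.5 µM at 24 h. Nars2 overlaps the noncoding C230038L03Rik on the opposite strand over 284 exonic bases.

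Iars2 and Mars2, the mitochondrial isoleucyl and methionyl enzymes, were called higher at 24 h. Iars2 had 23.5, 23.7 and 23.97 FPKM with 0.2 µM (+)-JQ1 against 19.3, 19.2 and 23.3 FPKM with 0.2 µM (−)-JQ1 at 12 h. At 0.5 µM Iars2 had 24.6, 24.2 and 23.9 FPKM with (+)-JQ1 against 19.3, 22.2 and 21.3 FPKM with (−)-JQ1. Iars2 was higher in each (+)-JQ1 library than in any (−)-JQ1 library of the same dose at 12 h. After 24 h Iars2 had 22.7, 26.5 and 20.7 FPKM with 0.2 µM (+)-JQ1 against 21.5, 18.4 and 16.02 FPKM with 0.2 µM (−)-JQ1. For 0.5 µM, Iars2 stood at 23.8, 24.9 and 22.96 FPKM with (+)-JQ1 against 17.9, 16.4 and 16.6 FPKM with (−)-JQ1. Iars2 was higher in each (+)-JQ1 library than in any (−)-JQ1 library at 0.5 µM and 24 h, and the groups overlapped at 0.2 µM. Iars2 had log2 fold changes of 0.20, 0.21, 0.31 and 0.47, each ± 0.10 (SE), with limma adjusted p of 0.0268 and 0.00106 at 24 h. At 0.2 µM and 24 h the adjusted p was 0.137 without (+)-JQ1 replicate 2 and 0.157 without (−)-JQ1 replicate 3 and 0.264 in the fit to 6 libraries, while the call at 0.5 µM and 24 h was kept in every setting tried. Iars2 shares 2034 exonic bases with Rab3gap2 on the opposite strand, so their reads cannot be told apart without strand; Rab3gap2 had log2 fold changes of 0.34, 0.33, 0.38 and 0.26 and was called higher in the first 3.

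Mars2 had 4.85, 4.92 and 5.57 FPKM with 0.2 µM (+)-JQ1 against 3.51, 4.24 and 3.64 FPKM with 0.2 µM (−)-JQ1 at 12 h. At 0.5 µM Mars2 had 5.43, 5.55 and 5.02 FPKM with (+)-JQ1 against 4.15, 3.43 and 4.45 FPKM with (−)-JQ1. Mars2 was higher in each (+)-JQ1 library than in any (−)-JQ1 library of the same dose at 12 h. After 24 h Mars2 had 5.66, 7.97 and 5.47 FPKM with 0.2 µM (+)-JQ1 against 5.42, 2.96 and 2.58 FPKM with 0.2 µM (−)-JQ1. For 0.5 µM, Mars2 stood at 4.88, 3.93 and 5.97 FPKM with (+)-JQ1 against 2.79, 3.302 and 3.67 FPKM with (−)-JQ1. Mars2 was higher in each (+)-JQ1 library than in any (−)-JQ1 library of the same dose at 24 h. Mars2 had log2 fold changes of 0.35, 0.34, 0.69 and 0.47, each ± 0.18 (SE), with limma adjusted p of 0.00433 at 0.2 µM and 0.0394 at 0.5 µM and 24 h. The 0.5 µM call was lost without any of 4 of its 6 libraries, at up to 0.179 without (+)-JQ1 replicate 3, and the 0.2 µM call became 0.0998 in the fit to 6 libraries. At 0.2 µM and 24 h the highest value of each group, 7.97 FPKM with (+)-JQ1 and 5.42 FPKM with (−)-JQ1, came from a library with high Mir5105.

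Vars2, the mitochondrial valyl enzyme with a pair of Nrf1 cores in its promoter, had the smallest difference at 0.5 µM and 24 h. Vars2 had 3.82, 4.09 and 4.55 FPKM with 0.2 µM (+)-JQ1 against 3.22, 4.17 and 4.32 FPKM with 0.2 µM (−)-JQ1 at 12 h. At 0.5 µM Vars2 had 3.98, 4.36 and 4.804 FPKM with (+)-JQ1 against 3.55, 4.09 and 4.66 FPKM with (−)-JQ1. Vars2 overlapped between the enantiomers at both doses at 12 h. After 24 h Vars2 had 3.23, 4.45 and 2.93 FPKM with 0.2 µM (+)-JQ1 against 5.12, 2.51 and 4.32 FPKM with 0.2 µM (−)-JQ1. For 0.5 µM, Vars2 stood at 3.196, 3.28 and 3.34 FPKM with (+)-JQ1 against 3.41, 3.25 and 3.35 FPKM with (−)-JQ1. Vars2 overlapped between the enantiomers at both doses at 24 h. The difference at 0.5 µM and 24 h was -0.02 ± 0.16 on the log2 scale, with a 95% interval of -0.35 to 0.31 and a limma adjusted p of 0.936. Aars2, Cars2, Hars2 and Rars2 were not called in any comparison either.

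Lars2, the mitochondrial leucyl enzyme, had its highest values in the libraries in which Mir5105, an entry annotated as a microRNA, was highest. Lars2 had 30.6, 25.3 and 55.6 FPKM with 0.2 µM (+)-JQ1 against 25.5, 22.1 and 44.4 FPKM with 0.2 µM (−)-JQ1 at 12 h. At 0.5 µM Lars2 had 33.3, 26.1 and 57.05 FPKM with (+)-JQ1 against 26.3, 19.99 and 41.99 FPKM with (−)-JQ1. Lars2 overlapped between the enantiomers at both doses at 12 h. After 24 h Lars2 had 18.9, 735 and 22.9 FPKM with 0.2 µM (+)-JQ1 against 642, 21.5 and 30.8 FPKM with 0.2 µM (−)-JQ1. For 0.5 µM, Lars2 stood at 23.04, 22.96 and 22.04 FPKM with (+)-JQ1 against 20.2, 23.1 and 20.8 FPKM with (−)-JQ1. Lars2 overlapped between the enantiomers at both doses at 24 h. The values of 735 and 642 FPKM belong to the libraries in which Mir5105 reached 408690 and 371271 FPKM; in the other 22, Lars2 lay between 18.9 and 57.0 FPKM and Mir5105 between 12995 and 32827 FPKM. Among those 22, replicate 3 of each group at 12 h held the 4 highest values of both genes, at 42.0 to 57.0 FPKM for Lars2 and 28714 to 32827 FPKM for Mir5105, against at most 33.3 and 25613 FPKM in the other 18. The fold change of Lars2 at 0.5 µM and 24 h, 0.08 ± 1.18 (95% interval -2.41 to 2.58; limma adjusted p 0.969), was fitted with the spread of all 8 groups, the high libraries included. Without both high libraries Lars2 was at -0.30 at 0.2 µM and 24 h (limma adjusted p 0.601) and at 0.08 at 0.5 µM and 24 h (0.864).

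The 2 libraries with high Mir5105 also held higher values of other synthetase genes of both compartments. They were the 2 highest of the 24 for Aars2 (6.78 and 6.71 FPKM), Cars2 (7.89 and 9.75), Hars2 (11.5 and 11.6) and Mars (16.3 and 22.1) too, with the (+)-JQ1 library given before the (−)-JQ1 library, though by far less than for Lars2. In replicate 2 of 0.2 µM (+)-JQ1 at 24 h, 13 of the 14 mitochondrial genes other than Lars2 exceeded the mean of the other two libraries of the group on the log2 scale, by a median of 0.43, against 0.01 for the 20 cytosolic genes and 0.05 for all genes. In replicate 1 of 0.2 µM (−)-JQ1 at 24 h it was 12 of 14, by a median of 0.48, against 0.06 for the cytosolic genes and 0.12 for all genes. The cytosolic genes went both ways, with 10 of 20 above that mean in the (+)-JQ1 library and 11 of 20 in the (−)-JQ1 library. Among them Vars exceeded it by 0.78 and 0.71, Farsa by 0.76 and 0.55, Mars by 0.54 and 0.74 and Qars by 0.31 and 0.46 in the (+)-JQ1 and the (−)-JQ1 library. As 1 such library lies in each group, both were left out together. At that dose and time 8 cytosolic genes were then called lower and 0 higher, and 4 mitochondrial genes higher and 1 lower. The fit to all 24 libraries called 21.8% of all genes lower and 11% higher there. The share of all genes called without the 2 libraries is not given here, so these counts were not set against it.

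**Figure D4:**
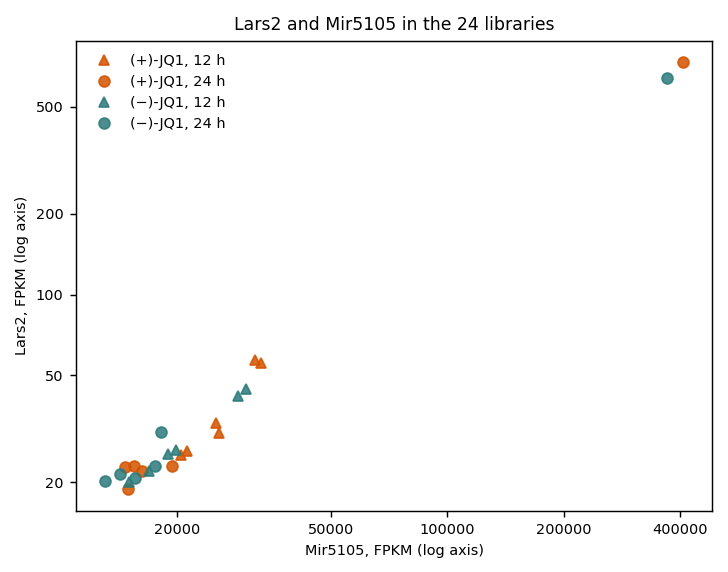
Lars2 against Mir5105 in the 24 libraries, both in FPKM on log axes, with triangles for 12 h and circles for 24 h. The 2 points at the upper right, 1 of each enantiomer, are the 24 h libraries with Lars2 at 735 and 642 FPKM; the 4 triangles next in line are replicate 3 of each group at 12 h.

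Set beside each other, the cytosolic and mitochondrial genes for the same amino acid often differed in fold change. For 13 amino acids both genes are among the 35, and the fold change of the mitochondrial gene was above that of its cytosolic partner in 9, 8, 10 and 9 of the 13 pairs. These counts include pairs on the same side of 0, and the added 1 understates changes of low genes, among them most mitochondrial ones. Both partners were called in opposite directions for asparagine and, at 0.5 µM and 24 h, for isoleucine, and for no other amino acid. For asparagine, Nars was called lower and Nars2 higher in all 4 comparisons, although median-of-ratios scaling left the call of Nars at 0.2 µM and 24 h alone. For isoleucine at 0.5 µM and 24 h, Iars was called lower at -0.27 ± 0.10 and Iars2 higher at 0.47 ± 0.10; the call of Iars ended with the scaling, at an adjusted p of 0.1. For methionine, Mars was at -0.27 and not called and Mars2 was called higher at 0.47 in that comparison. For valine, Vars was called lower at -0.82 and Vars2 was at -0.02. For tryptophan, Wars was at -0.18 and not called and Wars2 was called higher at 0.35. For tyrosine both were called lower, with Yars at -0.48 and Yars2 at -0.62, and for alanine Aars was called lower at -0.61 and Aars2 was at -0.16 and not called. The difference between partners was not tested.

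**Figure D5:**
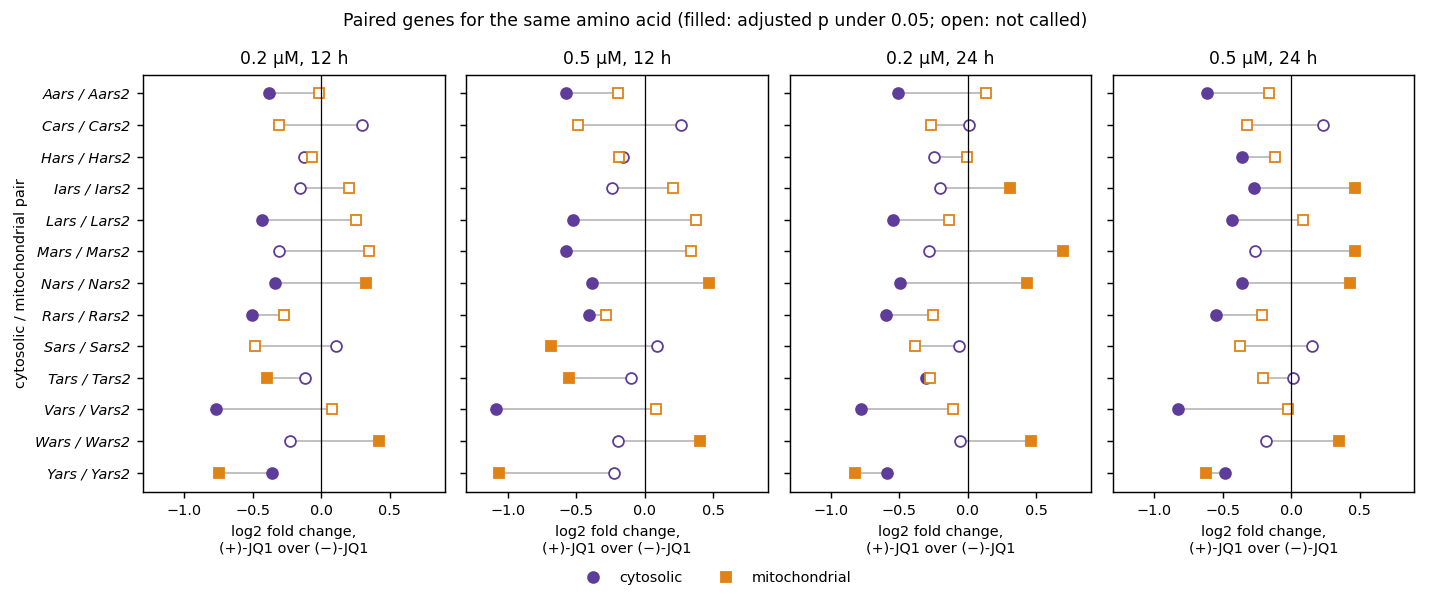
Log2 fold change, (+)-JQ1 over (−)-JQ1 (x axis), of the cytosolic (circle) and mitochondrial (square) gene for 13 amino acids at each dose and time; filled symbols passed an adjusted p of 0.05 and open ones did not. Nars and Nars2 lie on opposite sides of 0 in all 4 panels, and Yars and Yars2 on the same side.

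A second set of comparisons asks whether dose and time mattered. No synthetase gene was called for a difference between 0.5 and 0.2 µM in the effect of the enantiomer at 12 h or at 24 h, or between 24 and 12 h at either dose, where 0.0435%, 0.29%, 0.0217% and 0.326% of all genes were; by limma at an unadjusted p under 0.05 there were also 0, 0, 0 and 0, against 2.8%, 5.64%, 4.43% and 6.67% of all genes. The intervals were wide: for Vars the effect at 0.5 minus 0.2 µM and 12 h was -0.32 (95% interval -0.91 to 0.27) and for Mars2 the effect at 24 minus 12 h and 0.2 µM was 0.34 (-0.17 to 0.86). Within (+)-JQ1 no synthetase gene was called for 0.5 against 0.2 µM (0.645% of all genes at 12 h and 2.15% at 24 h). By limma 1 and 7 had an unadjusted p under 0.05, against 6.95% and 16.8% of all genes, led at 24 h by Fars2 at -0.53 ± 0.16 (adjusted p 0.105). Within (−)-JQ1 none was called for dose either (0% and 0.00725% of all genes), with 0 and 4 at an unadjusted p under 0.05 by limma, against 0.428% and 12.1%. From 12 to 24 h within (−)-JQ1 over both doses, Yars alone was called, against 15.6% of all genes in either direction. It was higher at 24 h by 0.24 ± 0.07 (limma adjusted p 0.0257). With 0.2 µM (−)-JQ1 Yars averaged 21.1 FPKM at 12 h and 28.3 FPKM at 24 h, and with 0.5 µM 21.2 and 22.3 FPKM. For 0.5 against 0.2 µM within (−)-JQ1 at 24 h it was at -0.32 ± 0.10 (limma unadjusted p 0.00404) and not called. From 12 to 24 h, 6 synthetase genes had an unadjusted p under 0.05, against 29.9% of all genes. The Yars call was lost without any 1 of 6 of the 12 (−)-JQ1 libraries, 4 at 12 h and 2 at 24 h, at a limma adjusted p of 0.0511 to 0.0706. Without both libraries with high Mir5105, 5 synthetase genes were called, and the share of all genes called in that fit is not given here.

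Genes that work beside the synthetases were read from lists chosen for their roles, without any test of the lists. Of the 3 scaffold genes of the multisynthetase complex, Eef1e1 was called lower in all 4 comparisons at -0.57, -0.73, -0.85 and -0.76, whereas Aimp1 at -0.05, -0.07, -0.58 and -0.20 and Aimp2 at -0.03, -0.22, 0.13 and -0.03 were not called. Eef1e1 averaged 23.2 ± 4.62 FPKM with 0.5 µM (+)-JQ1 at 24 h against 39.5 ± 3.99 with 0.5 µM (−)-JQ1 (SD, n = 3 each). Of 8 tested genes for tRNA proofreading and for the amidation and formylation steps of mitochondrial charging, 2, 4, 3 and 2 were called lower and 1, 1, 0 and 0 higher. Among all genes tested, 19.6%, 26.1%, 21.8% and 24.5% were called lower and 8.23%, 12.2%, 11% and 13.7% higher. Dtd1, which removes D-amino acids from transfer RNA, had the largest change at -1.54, -2.07, -1.80 and -2.08, with 2.66 ± 1.27 FPKM for 0.5 µM (+)-JQ1 at 24 h against 13.8 ± 1.703 for 0.5 µM (−)-JQ1. Qrsl1, a subunit of the amidotransferase that makes glutaminyl-tRNA in mitochondria, was at -1.08, -1.36, -0.93 and -0.86. Both were called in every comparison.

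The amino acid response genes did not move as a block. Atf4 had log2 fold changes of 0.02, 0.13, -0.12 and 0.11, none called, with 34.5 ± 2.42 FPKM for 0.5 µM (+)-JQ1 at 24 h against 31.8 ± 0.7602 for 0.5 µM (−)-JQ1. Of 15 tested Atf4 target and pathway genes, 3, 3, 1 and 1 were called higher and 0, 2, 3 and 2 lower. Sesn2, a leucine sensor upstream of mTORC1, was called higher in all 4 at 0.59, 0.71, 0.61 and 0.72, and the proline synthesis genes Pycr1 and Aldh18a1 were called lower at 0.5 µM and 24 h at -0.72 and -0.39. Of 10 tested amino acid transporters, 4, 4, 3 and 4 were called lower and 1, 2, 1 and 1 higher. Beside both lists, 19.6%, 26.1%, 21.8% and 24.5% of all genes were called lower and 8.23%, 12.2%, 11% and 13.7% higher. The transporters with the largest changes at 0.5 µM and 24 h were Slc38a1 (glutamine) at -1.38, Slc7a1 (arginine and lysine) at -1.19 and Slc6a9 (glycine) at -1.05. Slc1a4, a carrier of alanine, serine and cysteine, was called higher at 1.04 in that comparison. Of 9 translation elongation factors, only Eef2, the ribosomal translocase, was called in all 4 comparisons, higher at 0.39, 0.49, 0.42 and 0.45; 1 further factor, Tufm, was called lower at 0.5 µM and 12 h. Mycn, which like Myc binds E-boxes, was called lower at -0.86, -1.10, -0.67 and -0.73.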

How the data were processed

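Poly(A) RNA of 24 libraries of cortical NPCs, 3 for each of 8 groups of enantiomer, dose and time, was sequenced as single reads of 50 bases, per the labels' protocols. The authors deposited FPKM per gene symbol for each library; the submitters' processing notes name FastQC, TopHat2 and the mm9 build, while versions, the quantifier, the gene annotation and strandedness are not given in the sources used here. Of the entries, 29 symbols listed more than once were left out. FPKM keeps no absolute depth; steps of whole reads in low genes gave relative depths of 0.939 to 1.05, so libraries were of similar depth, and no counting intervals are given.

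Values were tested as log2(FPKM + 1) with limma 3.58.1 (R 4.3.3; trend and robust settings) for genes of at least 1 FPKM in at least 3 libraries, with 8 group means in 1 fit to all libraries (16 residual degrees of freedom), 13 comparisons and Benjamini-Hochberg adjustment over 13801 genes in each. The procedure was also run on simulated data with independent noise, without replicate effects or libraries with high Mir5105. That run therefore does not show how the procedure behaves with those features. For a single gene, an exact test of 3 against 3 could not go below p = 0.1. Per the labels, the triplicates come from independent preparations, but they do not say that equal replicate numbers mark 1 preparation. Deviations of same-numbered libraries correlated at -0.345 to 0.358 over the 4 enantiomer comparisons, and above 0.1 for all 3 numbers at 0.2 µM and 12 h alone, so the replicate number was an alternative.

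Values in every library are given for the 6 cytosolic and 4 mitochondrial called genes with the largest change at 0.5 µM and 24 h, the 2 of each group with the smallest, and genes called against their group's direction; Ears2, Gars, Nars and others are named by their calls. Slc1a4 was named after its value was seen. The 35 members are defined by symbol and not by value, but this set of genes and the gene lists were chosen with earlier results of these data known. Alternatives were a pseudocount of 0.1, no filter, median-of-ratios scaling, the replicate block, leaving out each library, fits to 6 libraries, and, chosen after seeing the data, leaving out both libraries with high Mir5105. Promoters and gene overlaps come from RefSeq GRCm38.p6 and GENCODE vM21.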

Additional observations from a re-analysis of the deposited data

How the results depend on the processing

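Of 61 calls of synthetase genes in the 4 enantiomer comparisons, 19 were kept in every setting tried and none changed direction. Mitochondrial genes called lower at 0.2 µM and 24 h numbered 1 with a pseudocount of 0.1, 1 with no filter, 1 with median-of-ratios scaling and 1 without both libraries with high Mir5105. With median-of-ratios scaling 1, 2, 1 and 2 cytosolic genes were called higher in the 4 comparisons, 1 mitochondrial gene lower at 0.2 µM and 12 h, 4 mitochondrial genes higher at 0.5 µM and 12 h, and 1794, 2624 and 2500 of all genes higher in the first 3. With the replicate number as a block 8, 9, 9 and 10 cytosolic genes were called lower. The share of all genes called lower with the block is not given here, and was 19.6%, 26.1%, 21.8% and 24.5% without it. Where all-gene counts of a setting are not given, its synthetase counts were not set against genes at large. The block with the scaling gave 1, 2, 1 and 2 cytosolic genes higher and 1 mitochondrial gene lower at 0.2 µM at either time. It also gave 4 mitochondrial genes higher at 0.5 µM and 12 h, and 1885, 2693 and 2617 of all genes higher in the first 3. For 17 of 24 libraries, the mean correlation with libraries of other groups was highest for those of the same number. That is a hint from the data and not the design. Synthetase genes called for 24 against 12 h within (−)-JQ1 numbered 3 with the scaling, 2 with the block, 4 with both and 5 without both libraries with high Mir5105. In the main fit 15.6% of all genes were called for time, and the share in those settings is not given here. Fits to the 6 libraries of a comparison gave, at 12 h, 6 mitochondrial genes lower with 0.2 µM and 4 higher with 0.5 µM. For 0.2 µM and 24 h they gave 2 cytosolic genes lower, 0 mitochondrial genes higher and 0 lower, and 423 of all genes higher and 1531 lower. Leaving out 1 library at 12 h gave, for 0.2 µM, 1 to 9 cytosolic genes lower, 0 to 2 mitochondrial genes higher and 1 to 2 lower, and for 0.5 µM 0 to 1 cytosolic genes higher and 4 to 9 lower. The ranges at 24 h were 1 to 4 mitochondrial genes lower for 0.2 µM, and for 0.5 µM 0 to 2 cytosolic genes higher, 4 to 10 lower, 2 to 4 mitochondrial genes higher and 1 to 2 lower. Of all genes, 767 to 958 were then called higher and 2109 to 2381 lower for 0.2 µM at 12 h. For 0.5 µM at 12 h it was 1295 to 1530 higher and 3046 to 3287 lower. At 24 h, 0.2 µM gave 1118 to 2065 higher and 2345 to 3351 lower, and 0.5 µM gave 1459 to 1737 higher and 2914 to 3228 lower. Within (−)-JQ1 the range of synthetase genes called was 0 to 3 for dose at 24 h and 0 to 5 for time. The cause of these shifts was not tested. FPKM without counts limits what can be said of low genes such as Ears2 and Yars2.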
